A study of Mus musculus with 12 samples.

Results

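The genes described here build and run the lysosome, the acidic compartment in which cells digest protein, lipid, sugar chains and worn organelles. The list was drawn up by function and holds 39 of the 46103 genes in the deposited expression files after numbered copies were summed. It contains 2 transcription factors that drive lysosomal genes, 5 membrane proteins, 10 cathepsins and related peptidases, 10 hydrolases or their cofactors, and 12 subunits or accessory proteins of the V-ATPase, the proton pump that acidifies the lumen. All 39 were found in the files.

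RNA was measured in sorted stem and progenitor cells from a mouse model of chronic myeloid leukemia (CML). Bone marrow from 5FU-treated G0M mice (Vav1-Cre; a Rosa26 allele carrying the mVenus and mutant p27 fusion that marks resting cells) was infected with a retrovirus expressing human BCR-ABL1 and GFP, and then transplanted into lethally irradiated C57BL/6 mice together with unmanipulated marrow. Vav1 drives Cre in blood cells, so the reporter is limited to that lineage, and the leukemia arose from transduced cells and not from an inherited allele. All 4 groups carried BCR-ABL1 and were sorted as Lin- Sca1+ cKit+ CD27+ cells from bone marrow and spleen, with 100 cells per library and 3 libraries per group. DP cells were CD27+ G0M+ and SP cells were CD27+ G0M-, both from vehicle-treated mice. IMDP and IMSP cells were the corresponding populations from mice given imatinib, which inhibits the kinase BCR-ABL1, dosed at 40 mg/kg once daily by oral gavage from day 10 after transplantation. Female mice of 6 to 12 weeks were used throughout the study. The sources used here do not say whether libraries came from separate mice or pools, so the p-values measure only the spread between these libraries.

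Lysosomal enzymes are made in the secretory pathway, tagged with mannose 6-phosphate and carried to the lysosome, where most of them work only at acid pH. TFEB and TFE3 enter the nucleus when nutrient signalling through mTORC1 is low and bind the CLEAR element, an E-box in the promoters of many lysosomal genes. In resting blood stem cells the lysosome is known as a compartment that clears damaged organelles and keeps metabolic activity low, and in mature myeloid cells, above all macrophages, many of these genes are strongly expressed.

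To show the element through which these genes are thought to be coordinated, the RefSeq promoter windows (250 bases before to 50 after the start site, GRCm38.p6) were searched on both strands for CACGTG and for the longer core TCACGTG, which contains it. Windows were found for 33 of the 39 members. CACGTG was in the window of 12 of these 33 members (36.4%), and in 30% of the 40 member windows against 7.15% of all 32817 windows. The longer core was in the windows of 10 members (30.3%), in 25% of member windows against 3.76% of all windows. Matching letters are a description and not a measured binding site. The stretches that lay upstream of the start and outside annotated exons are printed below 5′ to 3′ on the gene's strand, with each CACGTG in capitals. They are shown because they include *Lamp1*, *Atp6v0b* and *Ctsf*, which differed between IMDP and IMSP cells, next to *Atp6v1a*, *Gaa* and *Glb1*, which did not pass that test.
Lamp1, chr8:13159080-13159160, + strand: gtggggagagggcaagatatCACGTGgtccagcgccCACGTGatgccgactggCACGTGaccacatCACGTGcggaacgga
Atp6v0b, chr4:117887334-117887385, - strand: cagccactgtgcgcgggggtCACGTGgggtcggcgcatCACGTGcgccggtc
Ctsf, chr19:4855066-4855111, + strand: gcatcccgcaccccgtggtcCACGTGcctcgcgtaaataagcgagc
Atp6v1a, chr16:44139365-44139410, - strand: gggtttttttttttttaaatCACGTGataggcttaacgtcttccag
Gaa, chr11:119267803-119267848, + strand: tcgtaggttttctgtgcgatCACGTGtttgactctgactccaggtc
Glb1, chr9:114401010-114401055, + strand: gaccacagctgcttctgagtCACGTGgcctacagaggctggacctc
The *Lamp1* stretch held 4 copies and the *Atp6v0b* stretch 2. The *Ctsf* stretch held the E-box without the longer core.

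The files gave RPKM (reads per kilobase of transcript, scaled to the mapped reads of the library). Their steps corresponded to whole reads, and the library totals recovered from them were 11.4 to 20.6 M reads, of which 25.9 to 37.1% lay on listed features. The members together took 12391 to 24447 reads per library. The sort labels were checked against *Kit* at 16.8 to 39.8 RPKM and *Cd27* at 12.2 to 21.4 RPKM in all 12 libraries. *Ly6a*, which encodes Sca1, was uneven, at 17.8 to 20.8 RPKM in IMDP and 4.71 to 9.48 RPKM in IMSP. It had 5.61 to 18.3 RPKM in DP and 3.12 to 6.89 RPKM in SP. Of the lineage genes, *Ly6g* was at no more than 0.365 RPKM. *Itgam*, which encodes CD11b, ranged from 0.444 RPKM in an SP library to 3.08 RPKM in an IMDP library. The 6 proliferation genes on a list of markers (*Mki67*, *Top2a*, *Ccnb1*, *Cdk1*, *Birc5* and *Plk1*) were all lower in DP than SP and in IMDP than IMSP libraries. All imatinib libraries carried library numbers 1 to 6 and all vehicle libraries 7 to 12, so treatment and whatever the library number stands for cannot be told apart. Because each library is a bulk sample, fewer cells of a type and less RNA per cell cannot be told apart either.

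Differences were tested with limma on log2(RPKM + 0.1) in the 10072 genes that reached 1 RPKM in 3 or more libraries, with Benjamini-Hochberg adjustment over all of them, and adjusted p under 0.05 is called past the threshold. Of the 39 members, 38 passed this filter, and *Tfeb* did not.

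The members summed to 353 to 432 RPKM in IMDP and 501 to 607 RPKM in IMSP libraries, without overlap, while DP (391 to 579 RPKM) and SP (376 to 594 RPKM) overlapped with both. The share of reads that lay on listed features moved with this sum, at 31.1, 25.9 and 27.1% in IMDP 1 to 3 and 37.1, 35.3 and 32.6% in IMSP 1 to 3. As a percentage of feature reads the members overlapped, at 0.34 to 0.363% in IMDP and 0.353 to 0.448% in IMSP. The part of this share in the members' differences was not tested. Between IMDP and IMSP 13 of the 38 tested members passed the threshold (34.2%), 12 lower and 1 higher in IMDP, against 25.6% of all genes tested (23.3% lower and 2.37% higher). The difference between these shares was not tested, and the order turned under same-median scaling (13.2% of members and 15.5% of genes) and TMM scaling (13.2% and 15.8%). The median change was -0.25 on the log2 scale for all genes and -0.38 for the members. The 12 lower members were the peptidases *Ctsz* and *Ctsa*, the hydrolase group genes *Gla*, *Gusb*, *Hexa* and *Npc2*, the membrane protein *Lamp1*, and 5 V-ATPase genes (*Atp6v0b*, *Atp6v0c*, *Atp6v1b2*, *Atp6v1h* and *Atp6ap2*). The higher member was *Ctsf*.

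The number of calls depended on the scaling. With every library scaled to the same median over the genes tested, 5 members passed, 3 lower (*Ctsz*, *Atp6v0c* and *Atp6v1b2*) and 2 higher (*Ctsf* and *Ctso*), and over all genes the calls went from 2342 lower and 239 higher to 925 lower and 635 higher. TMM scaling also gave 5 and limma-voom on the recovered reads gave 6 (15.8% of members, against 15.3% of genes). The number also depended on single libraries. Without IMSP 1, 3 members passed (*Ctsz*, *Atp6v1b2* and *Ctsf*), 7.89% of members against 8.98% of all genes. It was 5 without IMDP 2 (13.5%, against 11.9% of genes), and 5 without IMDP 3 (13.2%, against 15.6% of genes). IMDP and IMSP libraries with the same number deviated together, and a fit blocked on that number gave 12 members (31.6%, against 29% of all genes). With neighbouring library numbers as a block 21 passed, 19 lower and 2 higher, against 44.1% of all genes.

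**Figure D1:**
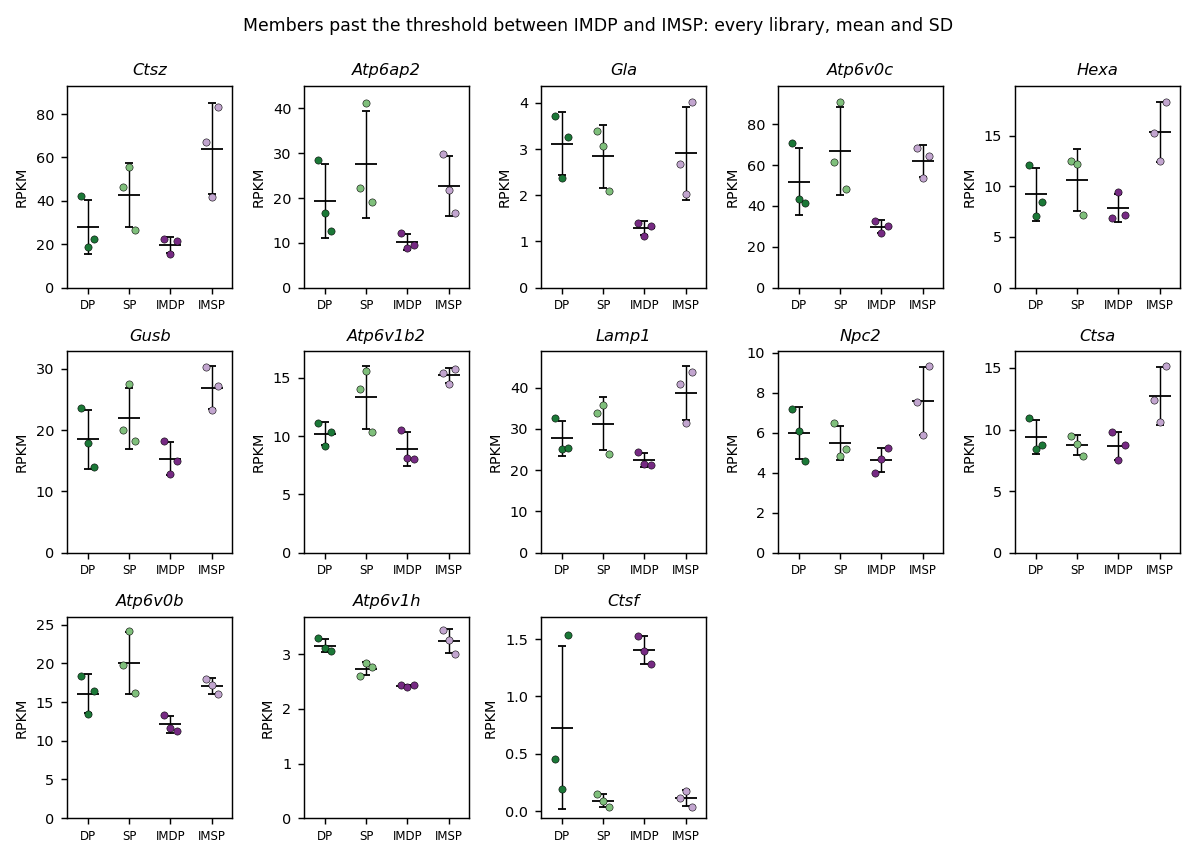
RPKM of the 13 members past the threshold between IMDP and IMSP, with 1 panel per gene, DP, SP, IMDP and IMSP on the x axis and RPKM from 0 on the y axis. Each point is a library, the bar is the mean and the whiskers are the SD (n = 3); in 12 panels the IMDP points lie below all IMSP points, and in the *Ctsf* panel they lie above them.

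The V-ATPase genes had changes of 1 sign. This pump has a soluble V1 part that hydrolyses ATP and a membrane V0 part that carries the protons. All 12 listed genes had a negative change in IMDP against IMSP, and all 12 were below the median change of all genes. Of them 5 passed the threshold as lower (41.7%), against 23.3% of all genes, and the difference between these shares was not tested. In 10 of the 12 the 3 IMDP libraries lay below all 3 IMSP libraries, which was so for 32.8% of all genes (6.21% were higher in this way). Scaled to the same median, all 12 changes stayed negative and 2 passed, while TMM scaling and limma-voom each left 11 negative and 2 past the threshold. Of all genes 15.5, 15.8 and 15.3% passed in these fits, in that order. The summed RPKM of the 12 genes was 128, 107 and 107 in IMDP 1 to 3 and 206, 177 and 180 in IMSP 1 to 3. It was 207, 140 and 141 in DP and 183, 254 and 148 in SP, so the vehicle groups overlapped.

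*Atp6v0c* (chr17:24163866-24169702, - strand), which encodes the proteolipid ring that carries protons through the membrane, was the most abundant pump gene. It measured 32.8, 26.6 and 30.2 RPKM in IMDP 1 to 3, 68.4, 53.5 and 64.4 RPKM in IMSP, 70.7, 43.5 and 41.2 RPKM in DP, and 61.6, 90.8 and 48.2 RPKM in SP. Every IMDP library was below every other library of the series. The mean was 29.8 ± 3.1 RPKM in IMDP and 62.1 ± 7.72 RPKM in IMSP (SD, n = 3), and the log2 change was -1.05 ± 0.24 (SE, adjusted p = 0.0113), 2.07-fold lower. Without IMSP 1 the adjusted p was 0.0533. *Atp6v0b* (chr4:117884326-117887333, - strand), another subunit of the membrane part, had 13.4, 11.7 and 11.3 RPKM in IMDP and 18.0, 17.2 and 16.01 RPKM in IMSP. In the vehicle groups it had 18.4, 13.4 and 16.5 RPKM in DP and 19.8, 24.1 and 16.2 RPKM in SP. Its IMDP values were below those of the other groups, with the highest just under the lowest DP value (log2 change against IMSP -0.49 ± 0.17, adjusted p = 0.0475). This call was lost in most alternatives, including the replicate block (adjusted p = 0.0653) and same-median scaling (adjusted p = 0.278). With neighbouring library numbers as a block it passed (adjusted p = 0.00356). Of the *Atp6v0b* exon bases, 11.8% are shared with an antisense gene, whose reads cannot be told apart in an unstranded library.

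Within the soluble part, *Atp6v1b2* (chr8:69088646-69113711, + strand), the B subunit that pairs with the catalytic A subunit, had 10.6, 8.11 and 8.01 RPKM in IMDP and 15.4, 14.5 and 15.7 RPKM in IMSP. DP libraries had 11.1, 9.14 and 10.4 RPKM and SP libraries 14.0, 15.6 and 10.3 RPKM. IMDP was below IMSP in every library (log2 change -0.78 ± 0.17, adjusted p = 0.00879), and the gene stayed past the threshold in all 24 alternative fits. *Atp6v1a* (chr16:44085402-44139705, - strand), the catalytic A subunit, had 7.62, 8.11 and 6.28 RPKM in IMDP and 9.81, 11.1 and 8.43 RPKM in IMSP, with 10.5, 8.67 and 8.55 RPKM in DP and 10.4, 12.8 and 8.72 RPKM in SP. The IMDP values lay below those of all other groups, yet the change against IMSP did not pass (log2 change -0.41 ± 0.17, adjusted p = 0.102). *Atp6v1h* (chr1:5070018-5162529, + strand), a regulatory subunit needed for pump activity, was tight within groups at 2.44, 2.41 and 2.43 RPKM in IMDP and 3.45, 3.27 and 3.01 RPKM in IMSP (log2 change -0.40 ± 0.13, adjusted p = 0.0385). It had 3.29, 3.12 and 3.06 RPKM in DP and 2.61, 2.84 and 2.76 RPKM in SP. The call was lost under same-median scaling (adjusted p = 0.459) and under the replicate block (adjusted p = 0.0753). With neighbouring library numbers as a block it held (adjusted p = 0.0313).

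*Atp6ap2* (chrX:12587801-12617049, + strand), an accessory protein of the pump also known as the prorenin receptor, had 12.3, 8.91 and 9.42 RPKM in IMDP and 29.8, 21.8 and 16.6 RPKM in IMSP. DP libraries spread over 28.6, 16.6 and 12.7 RPKM and SP libraries over 22.2, 41.2 and 19.1 RPKM. All IMDP values were the lowest of the series (log2 change against IMSP -1.12 ± 0.34, adjusted p = 0.032). Scaled to the same median its adjusted p was 0.0787. The 6 other pump genes had IMSP means above their IMDP means, and none passed in the unblocked limma fit of all 12 libraries. With neighbouring library numbers as a block *Atp6ap1*, *Atp6v0d1*, *Atp6v1c1* and *Atp6v1e1* passed, as did *Atp6v1a*. Their smallest adjusted p was that of *Atp6v1e1*, a stalk subunit (log2 change -0.48, adjusted p = 0.071), which passed with the replicate block.

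**Figure D2:**
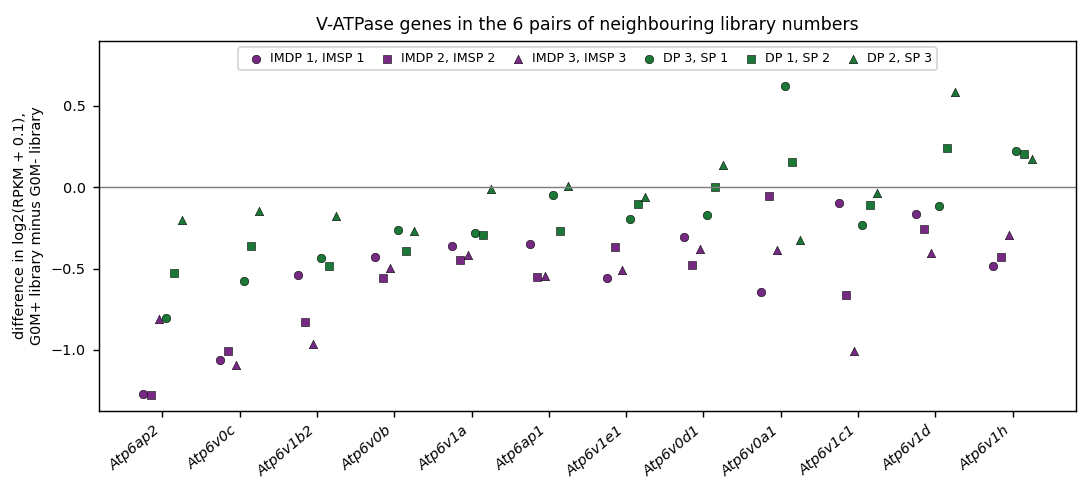
Difference in log2(RPKM + 0.1) between the G0M+ and the G0M- library of each of the 6 pairs of neighbouring library numbers, for the 12 V-ATPase genes on the x axis; purple points are imatinib pairs and green points vehicle pairs. For *Atp6v0c* the imatinib pairs sit between -1.09 and -1.01 and the vehicle pairs between -0.58 and -0.15, and for *Atp6v1h* the vehicle pairs lie above 0 and the imatinib pairs below.

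Neighbouring library numbers, which joined 1 G0M+ and 1 G0M- library in every case, gave a second view of the same values. In these 6 pairs 11 of the 38 tested members (28.9%) were lower in the G0M+ library every time, against 24.9% of all genes, and 7 of the 11 were pump genes (*Atp6v0b*, *Atp6v0c*, *Atp6v1a*, *Atp6v1b2*, *Atp6v1c1*, *Atp6v1e1* and *Atp6ap2*). The other 4 were *Ctsz*, *Gusb*, *Hexa* and *Lamp2*. Only *Ctsf* and *Gaa* were higher in G0M+ cells in every pair (5.26% of members, against 11.3% of all genes). The difference for *Gaa* was between 0.00 and 0.50 on the log2 scale.

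The peptidases split by gene. *Ctsd*, an aspartic protease, was the most abundant member of the whole list, and *Ctsz*, *Ctsb* and *Ctsa* followed within the class. Of the *Ctsd* exon bases, 34.4% overlap those of *Gm49369* on the same strand, a gene with no values here, so its level is less certain. *Ctsz* (chr2:174427493-174439039, - strand), which encodes cathepsin Z, a carboxypeptidase, showed the largest fall. It had 22.3, 15.5 and 21.5 RPKM in IMDP 1 to 3 and 67.1, 41.9 and 83.3 RPKM in IMSP 1 to 3. In vehicle-treated mice it had 42.1, 18.7 and 22.6 RPKM in DP and 46.3, 55.6 and 26.8 RPKM in SP. IMDP did not overlap with IMSP, and DP overlapped with SP and with IMDP. The mean was 19.7 ± 3.72 RPKM in IMDP and 64.1 ± 20.9 RPKM in IMSP (SD, n = 3), 3.16-fold lower on the log2(RPKM + 0.1) scale (log2 change -1.66 ± 0.35, adjusted p = 0.00763), and the call held in all 24 alternative fits. *Ctsa* (chr2:164832873-164841032, + strand), cathepsin A, protects β-galactosidase and neuraminidase in a complex. It had 9.78, 7.51 and 8.76 RPKM in IMDP, 12.4, 10.6 and 15.2 RPKM in IMSP, 11.0, 8.44 and 8.74 RPKM in DP, and 9.49, 8.84 and 7.89 RPKM in SP. IMDP lay below IMSP without overlap, and IMSP overlapped with DP (IMDP against IMSP -0.54 ± 0.17, adjusted p = 0.037), and the call was lost under same-median scaling (adjusted p = 0.28).

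*Ctsf* (chr19:4855130-4860918, + strand), a cysteine protease of low abundance here, went the other way. It had 39, 41 and 43 reads (1.53, 1.40 and 1.29 RPKM) in IMDP 1 to 3 and 4, 4 and 1 reads (0.115, 0.178 and 0.0376 RPKM) in IMSP. DP libraries had 14, 6 and 45 reads and SP libraries 6, 3 and 1. Each IMDP library was far above each IMSP library, while DP 3 stood near the IMDP level and DP 1 and DP 2 did not. Per library total, the 123 IMDP reads against 9 IMSP reads gave a ratio of 12.96 (95% exact counting interval 6.61 to 29.0), which covers counting error only. The fitted log2 change was 2.89 ± 0.72 (adjusted p = 0.015), and the adjusted p was up to 0.0578 without IMDP 2 or IMDP 3. *Ctsf* passed the filter on low values only through its IMDP libraries and DP 3.

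*Ctsd* and *Ctsb* showed no such separation. *Ctsd* (chr7:142375911-142388038, - strand) had 78.6, 48.1 and 55.3 RPKM in IMDP, 63.8, 61.0 and 49.1 RPKM in IMSP, 95.7, 52.5 and 50.7 RPKM in DP and 47.7, 71.9 and 47.6 RPKM in SP. All 4 groups overlapped (IMDP against IMSP 0.04 ± 0.27, adjusted p = 0.918). *Ctsb* (chr14:63122462-63145923, + strand), a cysteine protease, had 11.7, 11.8 and 9.88 RPKM in IMDP, 12.1, 10.3 and 13.1 RPKM in IMSP, 16.1, 9.19 and 8.72 RPKM in DP and 9.77, 12.98 and 7.59 RPKM in SP, and its groups overlapped as well. *Ctsl* (chr13:64359337-64370890, - strand), another cysteine protease, was low, with 1.57, 1.36 and 1.15 RPKM in IMDP, 0.497, 1.14 and 0.919 RPKM in IMSP, 1.22, 1.13 and 1.16 RPKM in DP and 0.931, 1.43 and 1.44 RPKM in SP (IMDP against IMSP 0.67 ± 0.30, adjusted p = 0.119). Its lowest IMDP value was just above its highest IMSP value, and it passed as higher in limma-voom. *Ctso* was 3.49 ± 0.302 RPKM in IMDP and 2.34 ± 0.631 RPKM in IMSP (SD, n = 3), with a log2 change of 0.58 (adjusted p = 0.114). Its IMDP libraries lay above all IMSP libraries, which was so for 6.21% of all genes. It passed under same-median and TMM scaling, in limma-voom and with the library-number block.

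*Ctss* (chr3:95526786-95556403, + strand), a cysteine protease of antigen-presenting cells, varied widely within groups. It had 3.64, 2.14 and 3.79 RPKM in IMDP, 1.81, 2.13 and 10.4 RPKM in IMSP, 2.12, 1.68 and 3.04 RPKM in DP and 3.19, 0.122 and 0.205 RPKM in SP. IMSP 3 and SP 1 stood above their groups. The same 2 libraries were highest in their groups for *Ctsh* (3.20 RPKM in IMSP 3 and 1.51 RPKM in SP 1) and for *Csf1r*, the receptor that marks monocytes and macrophages (28.7 RPKM in IMSP 3 and 5.05 RPKM in SP 1, against 3.65 and 6.13 RPKM in the other IMSP libraries). IMSP 3 also had the highest *Ctsz* and *Psap* of the series. Without IMSP 3, 9 members passed between IMDP and IMSP (24.3%, against 22.2% of all genes), and the change of *Ctsz* was -1.44.

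**Figure D3:**
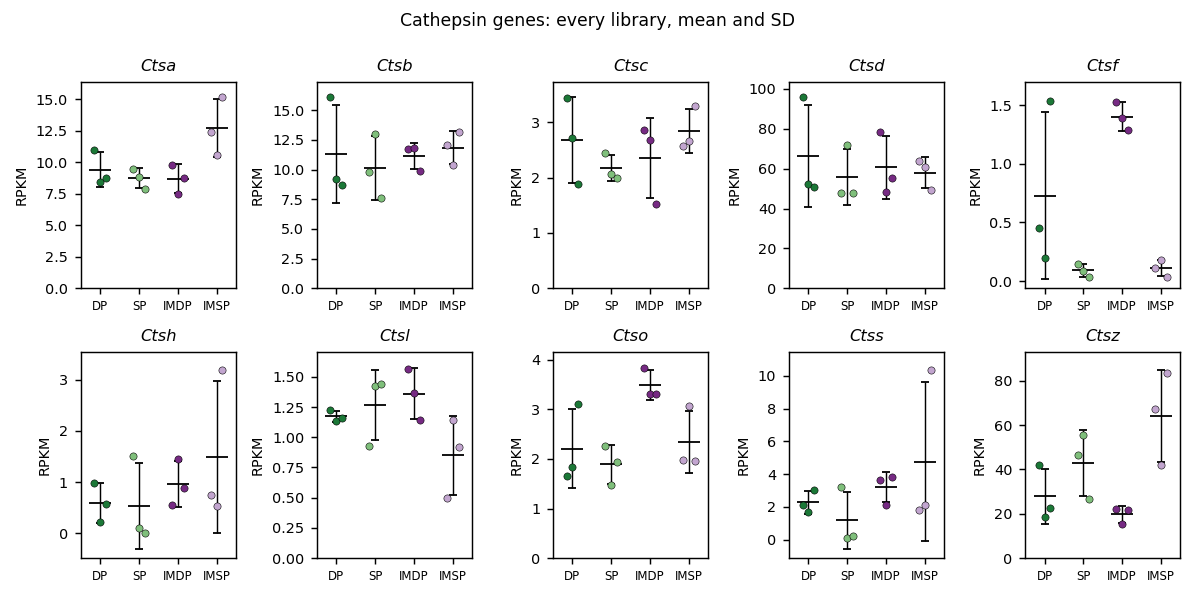
RPKM of the 10 cathepsin genes, 1 panel per gene, with DP, SP, IMDP and IMSP on the x axis and RPKM on the y axis. Points are libraries, bars are means and whiskers are SD (n = 3). *Ctsz* is low in all IMDP libraries and in DP 2 and DP 3, and *Ctsf* is high in all IMDP libraries and in DP 3. The high *Ctss* and *Ctsh* points of IMSP belong to the same library, IMSP 3.

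The 14 macrophage and monocyte markers gave changes in both directions. Their summed level was 56.2 to 84.8 RPKM in IMDP and 54.4 to 221 RPKM in IMSP, 33.7 to 110 RPKM in DP and 37.1 to 115 RPKM in SP. Of the 7 that could be tested, *C1qc* and *Vcam1* were higher in IMDP than in IMSP, against 2.37% of all genes. *C1qc* passed the filter on low values only through its IMDP libraries and DP 1. *Vcam1* passed it through its IMDP libraries, DP 1, DP 3 and SP 2. None passed as lower, against 23.3% of all genes, with *Ly6c2* at -3.30 (adjusted p = 0.0803) and *Csf1r* at -0.63 (adjusted p = 0.579). *C1qa*, *C1qb* and *C1qc* were at 0 in every SP and IMSP library and between 0.501 and 1.65 RPKM in every IMDP library, and *Marco* was at 0 in all libraries. The 12 neutrophil markers summed to 76.2 to 292 RPKM in IMDP and 523 to 2229 RPKM in IMSP, with all 6 tested changes negative and none past the threshold (5 at unadjusted p under 0.05). Mast cell and basophil markers summed to 22.3 to 221 RPKM in IMDP and 9.1 to 31.4 RPKM in IMSP, and 1 of 8, *Prss34*, passed as higher. *Prss34* passed the filter on low values only through its DP libraries, IMDP 1 and IMDP 2. Erythroid markers summed to 58.4 to 484 RPKM in IMDP and 10.7 to 72.9 RPKM in IMSP (1 of 7 tested, *Hbb-bt*, was higher), and megakaryocyte markers to 22.6 to 136 and 9.7 to 69.3 RPKM (0 of 7 passed, 1 at unadjusted p under 0.05). The 7 T and B cell markers summed to at most 2.2 RPKM in any library. The part of these cells, and of the proliferation genes, in the members' differences was not tested.

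The hydrolase group gave 4 of 10 members past the threshold (40%), all lower in IMDP, against 23.3% of all genes. *Gla* (chrX:134588149-134601125, - strand), α-galactosidase, had 1.40, 1.11 and 1.34 RPKM in IMDP and 2.68, 2.03 and 4.01 RPKM in IMSP, with 3.73, 2.38 and 3.25 RPKM in DP and 3.38, 3.07 and 2.08 RPKM in SP. Each IMDP library was below every library of the other groups (against IMSP -1.07 ± 0.27, adjusted p = 0.015). *Gusb* (chr5:129989011-130003049, - strand), β-glucuronidase, had 18.3, 12.8 and 14.9 RPKM in IMDP, 30.2, 23.3 and 27.1 RPKM in IMSP, 23.6, 17.9 and 14.0 RPKM in DP and 20.01, 27.5 and 18.2 RPKM in SP (IMDP against IMSP -0.81 ± 0.22, adjusted p = 0.02). *Hexa* (chr9:59539540-59565109, + strand), the α subunit of β-hexosaminidase, had 6.92, 9.48 and 7.20 RPKM in IMDP, 15.3, 12.5 and 18.4 RPKM in IMSP, 12.2, 7.05 and 8.46 RPKM in DP and 12.5, 12.2 and 7.13 RPKM in SP (IMDP against IMSP -0.96 ± 0.26, adjusted p = 0.0202). For both genes the vehicle groups overlapped and the imatinib groups did not.

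*Npc2* (chr12:84754562-84773152, - strand), which hands cholesterol to NPC1 for export, had 3.99, 4.70 and 5.23 RPKM in IMDP, 7.55, 5.91 and 9.32 RPKM in IMSP, 7.18, 6.11 and 4.60 RPKM in DP and 6.47, 4.86 and 5.17 RPKM in SP. IMSP lay above IMDP without overlap (-0.68 ± 0.21, adjusted p = 0.0337). Under same-median scaling none of these 4 hydrolase group genes passed, with adjusted p from 0.062 (*Gla*) to 0.228 (*Npc2*). *Psap* (chr10:60277627-60302597, + strand), the precursor of the saposins that present lipids to hydrolases, was the most abundant gene of the class. It had 44.4, 36.6 and 36.4 RPKM in IMDP, 45.3, 38.8 and 76.0 RPKM in IMSP, 37.2, 33.8 and 39.3 RPKM in DP and 40.9, 29.2 and 22.4 RPKM in SP, and the groups overlapped (IMDP against IMSP adjusted p = 0.264). *Gaa* (chr11:119267887-119285454, + strand), the acid α-glucosidase that breaks down glycogen, had 12.7, 10.5 and 10.2 RPKM in IMDP, 12.6, 9.21 and 9.35 RPKM in IMSP, 12.5, 11.2 and 9.98 RPKM in DP and 8.34, 11.3 and 7.88 RPKM in SP. Its change between IMDP and IMSP was 0.10 ± 0.18 (adjusted p = 0.695). *Glb1*, *Lipa*, *Galc* and *Neu1* had no change past the threshold in the unblocked limma fit of all 12 libraries. *Neu1* passed with the library-number block, and this gene, listed as 4 copies, spread from 1.25 to 8.77 RPKM among the SP libraries alone.

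Of the 5 membrane genes, *Lamp1* passed as lower between IMDP and IMSP (20%), against 23.3% of all genes. LAMP1 and LAMP2 are the heavily glycosylated proteins that line the lysosomal membrane. *Lamp1* (chr8:13159161-13175338, + strand) had 24.4, 21.6 and 21.2 RPKM in IMDP, 40.9, 31.4 and 43.8 RPKM in IMSP, 32.6, 25.1 and 25.5 RPKM in DP and 33.9, 35.8 and 23.9 RPKM in SP. The IMDP libraries were below all DP and IMSP libraries and overlapped with SP 3. Against IMSP the mean was 22.4 ± 1.74 against 38.7 ± 6.5 RPKM (SD, n = 3), 1.71-fold lower (log2 change -0.78 ± 0.18, adjusted p = 0.0126), and same-median scaling gave an adjusted p of 0.0718. *Lamp2* (chrX:38401357-38456454, - strand) had 18.7, 16.5 and 16.1 RPKM in IMDP, 21.0, 21.9 and 23.0 RPKM in IMSP, 20.7, 15.01 and 14.9 RPKM in DP and 17.9, 20.8 and 15.5 RPKM in SP. IMDP and IMSP did not overlap, and the change of -0.36 ± 0.16 did not pass (adjusted p = 0.11), although it did with the library-number block. *Mcoln1* (chr8:3500457-3515232, + strand), the lysosomal calcium channel, had 2.94, 5.57 and 3.36 RPKM in IMDP, 4.29, 4.66 and 4.41 RPKM in IMSP, 3.63, 4.88 and 5.60 RPKM in DP and 5.07, 4.21 and 4.30 RPKM in SP, with overlap throughout. *Npc1*, the cholesterol exporter, and *Scarb2*, the receptor that carries glucocerebrosidase to the lysosome, had group means of 5.43 to 6.93 and of 5.05 to 6.38 RPKM, and neither passed.

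**Figure D4:**
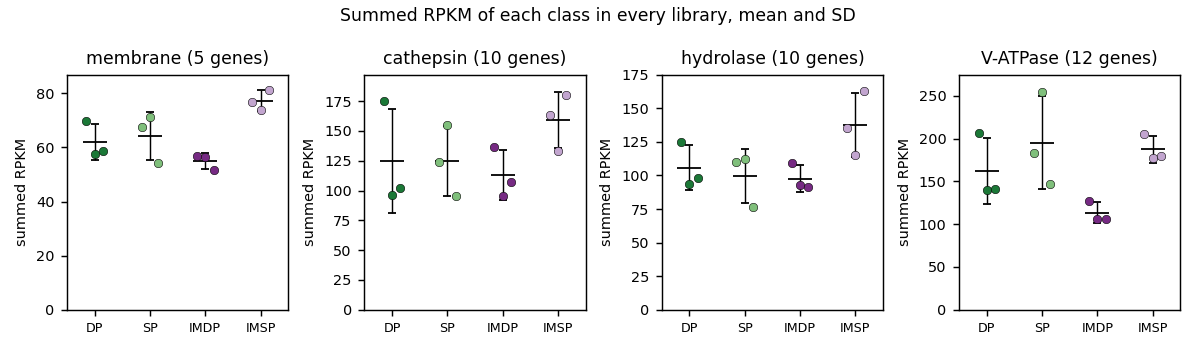
Summed RPKM of the membrane, cathepsin, hydrolase and V-ATPase members in every library, with the 4 groups on the x axis and summed RPKM from 0 on the y axis; bars are means and whiskers SD (n = 3). IMDP and IMSP points do not overlap in the membrane, hydrolase and V-ATPase panels and overlap in the cathepsin panel.

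The factors that drive these genes were themselves low. *Tfeb* (chr17:47737030-47792419, + strand) had 0.666, 1.09 and 0.926 RPKM in DP, 0.768, 0.790 and 0.487 RPKM in SP, 0.669, 0.601 and 0.580 RPKM in IMDP and 0.254, 0.577 and 0.486 RPKM in IMSP, from 15 to 57 reads per library. It reached 1 RPKM in 1 library and was not tested. The IMDP values were above the IMSP values, with the lowest IMDP value (0.580 RPKM) just over the highest IMSP value (0.577 RPKM). Among the genes tested, 6.21% were higher in this way. *Tfe3* (chrX:7762560-7775202, + strand) had 1.953, 2.16 and 2.67 RPKM in DP, 2.29, 1.08 and 1.57 RPKM in SP, 1.13, 1.67 and 1.65 RPKM in IMDP and 0.878, 1.52 and 2.27 RPKM in IMSP. DP was above IMDP without overlap (log2 change of IMDP against DP -0.58, adjusted p = 0.356), and IMDP and IMSP overlapped. Transcript level does not show how much of either factor is in the nucleus.

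Under vehicle, few members separated DP from SP cells. No member passed the limma test between DP and SP, against 2.26% of all genes (0.288% higher and 1.98% lower), with 3 at unadjusted p under 0.05 (*Ctsf*, *Ctss* and *Npc1*), and limma-voom on the recovered reads also gave 0. The median member change was 0.07, and the median gene changed by -0.02. *Ctsz* had the most negative cathepsin change (-0.65, adjusted p = 0.462), and it passed with neighbouring library numbers as a block (adjusted p = 0.0259). Without SP 1, the SP library with the highest *Ctss*, *Ctss* passed as higher in DP (adjusted p = 0.0396). DP libraries did not overlap with SP libraries, and were higher, for *Atp6v1h*, *Ctsf*, *Glb1* and *Npc1*, and for no member were they lower; among all genes 9.68% were higher and 12.7% lower in this way.

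Imatinib gave no member past the threshold within either population. Between IMDP and DP, 0 of 38 passed (7 at unadjusted p under 0.05) against 0.367% of all genes (0.0298% higher and 0.338% lower), and limma-voom gave 0 as well. The smallest adjusted p was that of *Gla* (-1.20 ± 0.27, adjusted p = 0.0692). In 11 members the IMDP libraries lay below all DP libraries, against 19% of all genes, and 7 of these were pump genes (*Atp6v0b*, *Atp6v0c*, *Atp6v1a*, *Atp6v1d*, *Atp6v1e1*, *Atp6v1h* and *Atp6ap2*). The other 4 were *Gla*, *Lamp1*, *Npc1* and *Tfe3*, and *Ctso* was higher in every IMDP library, against 4.58% of all genes. The median pump gene changed by -0.36, and the median of all genes by -0.17.

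Between IMSP and SP the changes leaned the other way. None of 38 members passed (4 at unadjusted p under 0.05), and none of all 10072 genes passed either (845 at unadjusted p under 0.05; background 0%), with 0 members past the threshold in limma-voom. The changes of 29 members were positive and the median was 0.23, against 0.08 for all genes. *Atp6v0a1*, *Atp6v1h*, *Ctsa*, *Ctsc*, *Galc*, *Glb1* and *Lamp2* were higher in all 3 IMSP libraries than in any SP library, and no member was lower without overlap, against 11.1% and 2.72% of all genes. IMDP and IMSP are each compared with their own vehicle group here, and IMDP and IMSP also enter the comparison described first, so these sets of values are not independent.

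**Figure D5:**
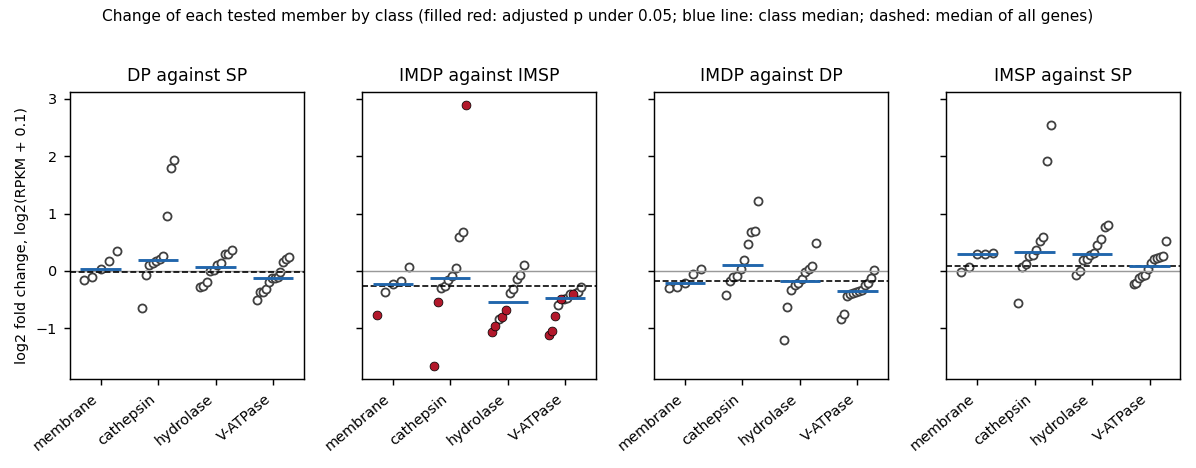
Log2 fold change of each tested membrane, cathepsin, hydrolase and V-ATPase member in the 4 pairwise comparisons, with class on the x axis and log2 fold change of log2(RPKM + 0.1) on the y axis; filled red points passed adjusted p under 0.05, blue lines are class medians and the dashed line is the median of all genes. Points past the threshold occur in the IMDP against IMSP panel alone, where all 12 V-ATPase points lie below the dashed line.

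Averaged over both treatments, G0M+ against G0M- cells gave 9 of 38 members past the threshold, 8 lower (*Ctsz*, *Atp6v1b2*, *Atp6v0c*, *Atp6v0b*, *Atp6ap2*, *Lamp1*, *Gusb* and *Hexa*) and *Ctsf* higher, against 26.3% of all genes (21% lower and 5.32% higher). The share of members, 23.7%, was near that background. The change of *Ctsz* was -1.15 ± 0.25 (adjusted p = 0.00736) and that of *Ctsf* 2.34 ± 0.51 (adjusted p = 0.00775). Scaled to the same median, 7 members passed, 4 lower and 3 higher (*Ctsf*, *Gaa* and *Npc1*), and 4 passed when DP 2, DP 3, SP 2, IMDP 3 or IMSP 1 was left out. The share of all genes in these fits is not given here, so the counts are not read as a result about the members. Averaged over both populations, imatinib against vehicle gave 0 members (7 at unadjusted p under 0.05), against 0.854% of all genes (0.248% higher and 0.606% lower).

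The difference between the imatinib and vehicle contrasts was tested as an interaction. It gave 0 members and 0 genes in all past the threshold (5 members and 937 genes at unadjusted p under 0.05; background 0%), and limma-voom also gave 0 members. The estimates were negative for 35 of 38 members, with a median of -0.45 against -0.25 for all genes, so the population difference seen under imatinib is not shown to differ from that under vehicle. The 5 members at unadjusted p under 0.05 were *Atp6v1h*, *Ctsa*, *Gla*, *Lamp1* and *Npc2*, each with an adjusted p of 0.534.

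Other genes of the same pathway, listed by function, were compared between IMDP and IMSP in the same fit. Of 37 other hydrolases and activators tested by limma, 0 passed as lower, against 23.3% of all genes, and 6 in either direction had an unadjusted p under 0.05. Their median change was -0.15, against -0.25 for all genes and -0.54 for the 10 hydrolase members, and with same-median scaling 0 passed as lower as well. Of 25 other membrane proteins, *Tpcn2*, an ion channel, was higher (0.81, adjusted p = 0.016) and *Tmem192* was lower (-1.20, adjusted p = 0.0146). *Atp6v0e* was lower among 6 other V-ATPase genes tested (-0.74, adjusted p = 0.0149), and 5 of those 6 changes were negative. For both lists the background was 23.3% of all genes lower and 2.37% higher. The remaining subunits on that list are tissue-restricted forms or others that did not pass the filter, and 5 were at 0 in all 3 libraries of each group.

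In the sorting list, 7 of 20 genes passed, all lower, with *Nagpa*, which uncovers the mannose 6-phosphate tag, at -1.11 (adjusted p = 0.00867) and *Sumf1*, which activates sulfatases, at -0.99 (adjusted p = 0.0154) as the largest falls. Of 17 genes for MiT/TFE factors and mTORC1 at the lysosome, 6 passed, all lower, with *Tfec*, a relative of TFEB, at -1.32 (adjusted p = 0.0208) and *Lamtor3*, a scaffold that anchors mTORC1, at -0.83 (adjusted p = 0.0365). These shares of 35% and 35.3% compare with 25.6% of all genes. Under same-median scaling *Tpcn2* and *Nagpa* were still past the threshold, 1 sorting gene and 0 genes of the MiT/TFE and mTORC1 list passed, and *Tmem192* and *Atp6v0e* did not.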

How the data were processed

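The libraries of 4 groups, 3 in each, were analysed. Per the labels and the study's methods, the authors prepared unstranded Nextera XT libraries from 100 sorted cells, mapped NextSeq reads to GRCm38/mm10 in CLC Genomics Workbench 11.0.0 and deposited RPKM for 48737 features; the study's software list names HISAT2 and featureCounts instead, so which of them made the values is uncertain. Numbered copies were summed, and whole reads were recovered from the RPKM steps of all 17735 features above 0. From there, log2(RPKM + 0.1) was fitted with limma 3.58.1 (R 4.3.3; variance trend, 4 group means, 7 contrasts, Benjamini-Hochberg over 10072 genes), and tables were made with pandas 2.3.3. The scripts were tested on simulated data. The settings tried besides were 12 processing alternatives and 12 fits that left out 1 library each.

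The members and all lists were chosen with earlier results of these data known. Values in every library are given for members past the threshold in a pairwise contrast and for 14 members of central role; the other members are given by ranges and counts, and from other lists at most 4 genes each, the 2 largest rises and falls past the threshold. *Ctso*, *Ctsh*, *Npc1* and *Neu1* values were singled out after they were seen. IMDP and IMSP libraries with equal numbers deviated together (correlations of their deviations from group means 0.43, 0.65 and 0.46), so these numbers were taken to pair them; DP and SP libraries did not (-0.30 to -0.10). All 6 pairs of neighbouring library numbers correlated at 0.43 to 0.65. Gene positions are from GENCODE M21 (GRCm38). Exons of 13 members overlap those of another gene, 6 of them by 10% or more (*Ctsd*, *Ctsl*, *Ctsb*, *Hexa*, *Atp6v0b* and *Ctsa*). *Neu1*, *Atp6v1c1* and *Atp6v1e1* were listed as several copies. The reads of all these members are less certain. Higher calls in the list of other lysosomal hydrolases are not reported here.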

Additional observations from a re-analysis of the deposited data

Results flagged for a closer look

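*Atp6v1h*, the regulatory H subunit of the V-ATPase, stood out because its 2 population differences pointed in opposite directions without overlap. Every DP library (3.06 to 3.29 RPKM) was above every SP library (2.61 to 2.84 RPKM), and every IMDP library (2.41 to 2.44 RPKM) was below every IMSP library (3.01 to 3.45 RPKM). The limma interaction estimate was -0.60 on the log2 scale with an adjusted p of 0.534, so this test did not separate the 2 differences. Over the alternative fits the estimate ranged from -0.65 to -0.36 and the adjusted p from 0.134 to 0.988.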

How the results depend on the processing

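The number of members past the threshold between IMDP and IMSP (13) became 5 with libraries scaled to the same median, 5 with TMM scaling, 6 with limma-voom and 21 with the library-number block. It ranged from 3 to 13 when 1 library was left out, while the share of all genes ranged from 8.98 to 29.7%. For G0M+ against G0M- averaged over treatments (9), the library-number block gave 18, and leaving out 1 library gave 4 to 12. The share of all genes in these fits is not given here. For DP against SP (0), the library-number block gave 1, and leaving out SP 1 gave 1, so the range was 0 to 1. The share of all genes in these fits is likewise not given, so these counts are not read as a result about the members. The other contrasts stayed at 0 in all alternatives that were run for them. *Ctsz* and *Atp6v1b2* passed between IMDP and IMSP in all 24 alternatives. The replicate block gave 12 and 9 members in the first 2 contrasts named; *Atp6v0b* and *Atp6v1h* no longer passed and *Atp6v1e1* did. No member value reversed its direction among those past the threshold. The scaling changes the reference by construction: the median of all genes moved from -0.25 to 0.02 on the log2 scale, and for all genes the calls went from 239 higher and 2342 lower to 635 higher and 925 lower. Depth limits *Ctsf*, *Ctsh*, *Ctss* and *Tfeb*, which had fewer than 20 reads in at least 1 library.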

Other observations

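The products of the autophagy list deliver cargo to the lysosome. Between IMDP and IMSP, 1 of its 23 tested genes passed, against 25.6% of all genes. This was *Atg3*, the enzyme that conjugates LC3, with 3.99, 3.49 and 3.36 RPKM in IMDP and 7.88, 6.20 and 6.52 RPKM in IMSP (log2 change -0.90, adjusted p = 0.01 by limma). The list's median change was -0.08 in that comparison, against -0.25 for all genes. Under same-median scaling 2 genes were higher (*Map1lc3b* and *Rb1cc1*) and *Atg3* was lower. Between IMDP and DP, *Sqstm1*, the receptor that brings ubiquitin-marked cargo to autophagosomes, was lower. It had 25.0, 20.9 and 22.1 RPKM in IMDP and 58.7, 105 and 64.6 RPKM in DP (-1.70 ± 0.25, adjusted p = 0.0338), and it did not pass under same-median scaling. For imatinib against vehicle averaged over populations, *Sqstm1* was lower under that scaling (limma, -1.38, adjusted p = 0.0144) and in limma-voom (-1.39, adjusted p = 0.0121). None of the 23 changes between IMDP and DP was positive, with a median of -0.33 against -0.17 for all genes.

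Of 5 tested inhibitors of cathepsins, 2 were lower in IMDP than in IMSP (40%), against 23.3% of all genes. *Cst3*, the secreted inhibitor cystatin C, had 44.9, 49.8 and 53.0 RPKM in IMDP and 84.9, 74.0 and 110 RPKM in IMSP (-0.85 ± 0.18, adjusted p = 0.00735). *Cst7*, cystatin F, an inhibitor found in lysosomes of immune cells, had 2.43, 1.4998 and 6.76 RPKM in IMDP and 22.5, 8.03 and 20.5 RPKM in IMSP (-2.36, adjusted p = 0.0473). Neither passed under same-median scaling.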
